A study of Zea mays with 9 samples.

Results

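The YABBY and KANADI genes described here are 6 maize transcription factor genes: the YABBY genes *yab10*, *yab14*, *yabby15*, *drl1* and *drl2*, and the KANADI gene *mwp1*. They were chosen by gene ID, as a named list, and are 6 of the 45498 rows of the count table. The data are RNA-seq counts from 8 libraries of laser-microdissected tissue of 14-day-old maize seedlings, in 4 groups of 2: *dcl1-2* P3, wild-type P3, *dcl1-2* CZ and wild-type CZ. P3 is the third-youngest leaf primordium, and the CZ is the central zone of the shoot apical meristem, which holds the stem cells. *dcl1-2* is a hypomorphic allele of *DCL1*, the gene of the ribonuclease that cuts miRNA precursors; it was introgressed into the inbred line B73, and the wild-type plants were siblings of the mutants. Each library came from pooled apices, so a replicate is a pool, and its RNA was linearly amplified before sequencing. All CZ libraries were read single-end and all P3 libraries paired-end, so tissue and read layout cannot be told apart in any comparison of P3 with the CZ. Comparisons of *dcl1-2* with wild type lie within 1 layout. With bulk RNA, fewer cells that express a gene and less RNA of it per cell cannot be told apart.

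YABBY and KANADI proteins help to set up the upper (adaxial) and lower (abaxial) sides of a leaf and the growth of its blade. They act in a network with the adaxial class III HD-ZIP factors, which miR166 cuts, and with the small RNAs made from *tas3* transcripts. In Arabidopsis, KANADI and several YABBY genes work on the abaxial side, while maize *yab14* transcripts are found towards the adaxial side of young primordia. *mwp1* (*milkweed pod1*) is a KANADI gene needed for abaxial cell fate in the maize leaf sheath. *drl1* and *drl2* are related to *DROOPING LEAF* of rice and *CRABS CLAW* of Arabidopsis, and act on leaf shape and midrib. *yab10* carries the family name, and its role in maize is less well described.

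On the authors' build, B73 RefGen_v3, *yab10* (GRMZM2G167824) lies on chromosome 1 at 225032510 to 225037728, on the plus strand. *drl1* (GRMZM2G088309) is on the same chromosome at 26575978 to 26581139, also plus, 22.0 Mb from *DCL1*. *yabby15* (GRMZM2G529859) spans 189198008 to 189200889 on the plus strand of chromosome 5. On the minus strand are *mwp1* (GRMZM2G082264), at 107233099 to 107239726 on chromosome 7, *drl2* (GRMZM2G102218), at 146693340 to 146698631 on chromosome 9, and *yab14* (GRMZM2G005353), at 133109200 to 133111834 on chromosome 10. None of the 6 overlaps another gene model of the table. The name table used here gives no symbol for GRMZM2G102218, which is called *drl2* as in the list.

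Library totals were 8626824 to 10328582 counts in P3 and 24753974 to 30327603 in the CZ, so 1 count was worth 0.0968 to 0.116 RPM in P3 and 0.0330 to 0.0404 RPM in the CZ; RPM here is the count scaled to 1000000 counts in the library. *DCL1* itself had 141 and 136 RPM in *dcl1-2* P3 against 73.2 and 101 RPM in wild-type P3. In the CZ it had 84.0 and 91.7 RPM in *dcl1-2* against 65.4 and 62.2 RPM in wild type. A hypomorphic allele need not lower its own transcript, so this does not check the labels. The tissues could be checked. The 5 meristem KNOX genes summed to 30.3 to 44.8 RPM in P3 and 1124 to 1388 RPM in the CZ. The 4 epidermal HD-ZIP IV genes summed to 371 to 506 RPM in P3 and 196 to 226 RPM in the CZ. One of them, *ocl1*, overlapped between the tissues in wild type, at 137 and 110 RPM in P3 against 123 and 142 RPM in the CZ. In *dcl1-2* it had 166 and 162 RPM in P3 against 124 and 117 RPM in the CZ. The 2 CUC2-like NAC boundary genes summed to 42.4 and 58.3 RPM in *dcl1-2* P3, 17.7 and 13.8 RPM in wild-type P3, and 92.2 to 134 RPM in the CZ. GRMZM2G393433 held most of that sum. The other, GRMZM2G139700, had 7.66 and 3.83 RPM in wild-type P3 against 4.35 and 7.36 RPM in wild-type CZ. In *dcl1-2* it was higher in P3, at 16.3 and 24.7 RPM against 9.57 and 10.7 RPM in the CZ. The 8 photosynthesis genes were near 0 in both tissues, at 10.3 to 15.9 RPM in P3 and 2.25 to 3.65 RPM in the CZ, with *cab48* at 0 in every library.

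All 6 genes were leaf transcripts in both genotypes: every P3 library lay above every CZ library for each of them. Together they took 1278 and 1261 RPM in *dcl1-2* P3 and 1297 and 923 RPM in wild-type P3, against 15.8 and 23.6 RPM in *dcl1-2* CZ and 25.5 and 57.7 RPM in wild-type CZ. Within a genotype, both P3 libraries were above both CZ libraries for all 6 genes. The same held for 45.5% of all genes tested in *dcl1-2* and for 46.9% in wild type. On that measure the direction alone does not set the 6 apart. The share of all genes with every P3 library above every CZ library of both genotypes was not counted. Per length their levels could not be compared, since no transcript or protein length was at hand, and levels are therefore set side by side only between libraries.

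**Figure D1:**
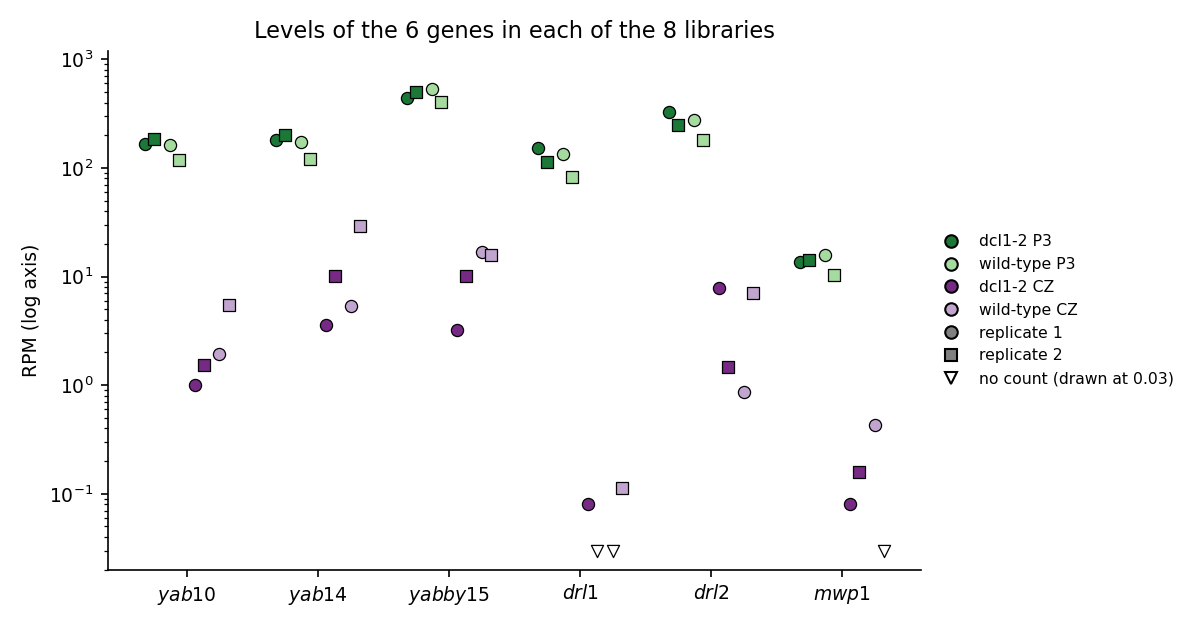
Level of each of the 6 genes in every library, in RPM on a log axis, with 1 point per library, circles for replicate 1 and squares for replicate 2. Open triangles mark libraries with no count. All P3 points of a gene lie above all of its CZ points, and the CZ points of a gene spread far more than its P3 points.

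Among the YABBY genes, *drl1* was the nearest to absent from the CZ. It had 153 and 114 RPM in *dcl1-2* P3 (1386 and 1182 counts) and 135 and 82.6 RPM in wild-type P3 (1307 and 713 counts). In the CZ it had 2 and 0 counts in *dcl1-2* and 0 and 3 counts in wild type. A library with no count allows up to 3 counts, or 0.119 RPM in the *dcl1-2* library and 0.0989 RPM in the wild-type one. Over pooled counts the ratio of P3 to the CZ was 3306 in *dcl1-2* (95% exact counting interval 914 to 27317) and 2096 in wild type (716 to 10173). Such intervals cover counting error only, since amplified reads are not independent molecules. The fitted log2 fold change was 11.37 ± 0.62 in *dcl1-2* and 10.63 ± 0.60 in wild type (± SE; edgeR quasi-likelihood test, Benjamini-Hochberg adjusted p = 3.0e-07 and 4.4e-07). With so few CZ counts this size is loose, although the call was kept. With the deposited RPM in limma it was 7.40 in *dcl1-2* and 7.06 in wild type. It was 14.09 in *dcl1-2* without *dcl1-2* CZ replicate 1, and 13.71 in wild type without wild-type CZ replicate 2, where the remaining CZ library has no count and the value is no bound.

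*drl2* was uneven between the CZ libraries. Its levels were 327 and 250 RPM in *dcl1-2* P3 and 275 and 182 RPM in wild-type P3, against 7.92 and 1.47 RPM in *dcl1-2* CZ and 0.857 and 7.10 RPM in wild-type CZ. One library of each genotype was high and the other low, so that replicates differed 5.40-fold in *dcl1-2* CZ and 8.28-fold in wild-type CZ, while P3 replicates differed 1.31-fold in *dcl1-2* and 1.51-fold in wild type. The log2 fold change of P3 over the CZ was 5.83 ± 1.26 in *dcl1-2* (adjusted p = 0.0152) and 5.65 ± 1.26 in wild type (adjusted p = 0.0178), edgeR. The *dcl1-2* call was lost without *dcl1-2* P3 replicate 1 (5.61, adjusted p = 0.0548) or *dcl1-2* CZ replicate 2 (5.07, 0.0628). The wild-type call was lost without wild-type P3 replicate 1 (5.26, adjusted p = 0.0602), and also with the 4 wild-type libraries alone (5.65, 0.0737). The fold changes thus stayed large where the calls were lost.

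The pair *drl1* and *drl2* kept a nearly fixed ratio in P3, and had a lower one in the CZ. The count of *drl1* per count of *drl2* was 0.467 and 0.458 in the *dcl1-2* P3 libraries and 0.492 and 0.454 in the wild-type ones, although the level of each gene varied between those libraries. In the CZ it was 0.0102 and 0 in *dcl1-2* and 0 and 0.0159 in wild type. The CZ libraries with 196 and 189 *drl2* counts thus had 2 and 3 *drl1* counts, too few to tell whether the ratio varied between CZ libraries. This ratio was picked out after the values were seen and carries no test.

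*yab10* had 165 and 183 RPM in *dcl1-2* P3 and 164 and 119 RPM in wild-type P3, against 1.01 and 1.55 RPM in *dcl1-2* CZ and 1.95 and 5.45 RPM in wild-type CZ. Its log2 fold change of P3 over the CZ was 6.97 ± 0.58 in *dcl1-2* (adjusted p = 0.000105, edgeR) and 5.05 ± 0.51 in wild type (adjusted p = 0.000295). *yabby15* was at 438 and 500 RPM in *dcl1-2* P3 and 535 and 409 RPM in wild-type P3. In the CZ it was at 3.19 and 10.2 RPM in *dcl1-2* and at 16.9 and 15.8 RPM in wild type, whose replicates lay close together. Its log2 fold change was 6.02 ± 0.60 in *dcl1-2* (adjusted p = 0.000709, edgeR) and 4.64 ± 0.55 in wild type (adjusted p = 0.00156). Both genes thus rose in P3 in either genotype.

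*yab14* had the smallest gap between the tissues. It had 182 and 200 RPM in *dcl1-2* P3 and 172 and 121 RPM in wild-type P3, with 3.56 and 10.2 RPM in *dcl1-2* CZ and 5.34 and 29.3 RPM in wild-type CZ. Wild-type CZ replicate 2 stood out: it held 20.0% of the wild-type P3 mean, where the other 3 CZ libraries held 2.43% to 6.98%. The log2 fold change of P3 over the CZ was 4.68 ± 1.08 in *dcl1-2* (adjusted p = 0.0187, edgeR), and 2.86 ± 0.98 in wild type, which did not pass the test (adjusted p = 0.0632). The wild-type call depends on the method: DESeq2 called it (2.92, adjusted p = 0.00484), as did limma on the deposited RPM (3.77, adjusted p = 8.1e-05). With no filter on low counts edgeR also called it (2.85), at adjusted p = 1.7e-54, although the wild-type CZ replicates differed 5.48-fold. That fit took little account of the spread between libraries, so its call adds little. Without wild-type CZ replicate 2 the wild-type value was 4.59 and passed (adjusted p = 0.00814). The call in *dcl1-2* was lost when any 1 of its 4 libraries was left out, with adjusted p of 0.0579 and 0.0616 without P3 replicate 1 and 2, and 0.0893 and 0.0567 without CZ replicate 1 and 2. The fold changes in those fits were 4.73, 4.60, 4.12 and 5.63, in the same order.

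In P3, *yab14* and *yab10* were close to parity in counts, and in the CZ they were not. The ratio of *yab14* to *yab10* was 1.10 and 1.09 in the P3 libraries of *dcl1-2* and 1.05 and 1.02 in those of wild type, against 3.52 and 6.62 in *dcl1-2* CZ and 2.75 and 5.37 in wild-type CZ. The ratio of *yabby15* to *yab10* did not split by tissue: it was 2.66 and 2.73 in the P3 libraries of *dcl1-2* and 3.27 and 3.45 in those of wild type, and ranged from 2.90 to 8.71 over the CZ libraries. Like the *drl* ratio, these were chosen after seeing the values.

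The KANADI gene *mwp1* had the fewest P3 counts of the 6, at 13.7 and 14.1 RPM in *dcl1-2* P3 and 15.8 and 10.3 RPM in wild-type P3. In the CZ it had 2 and 4 counts in *dcl1-2* and 13 and 0 counts in wild type. The pooled ratio of P3 to the CZ was 116 in *dcl1-2* (95% exact counting interval 52.6 to 319) and 58.0 in wild type (33.3 to 110). The fitted log2 fold change was 6.67 ± 0.82 in *dcl1-2* (adjusted p = 7.7e-06, edgeR) and 5.63 ± 0.75 in wild type (adjusted p = 1.9e-05). It was 4.11 in *dcl1-2* and 3.90 in wild type with the deposited RPM in limma. Without wild-type CZ replicate 1, the library with all 13 wild-type CZ counts, the wild-type value was 10.60, again no bound. The call was kept in each.

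Counting the calls, 6 of 6 genes passed as higher in P3 in *dcl1-2*, where 33.2% of all genes tested did so, and 5 of 6 in wild type, where 31.2% did so. In wild type the count was 6 of 6 with DESeq2 and with the deposited RPM. It was also 6 of 6 with no filter, in the fit that took little account of the spread between libraries. The median log2 fold change of all genes tested was 0.02 in each genotype. The P3 to CZ comparisons of the genotypes share no library, but both came from 1 model of all 8 libraries with a shared estimate of spread. Their calls are thus not independent. With only the 4 libraries of a genotype in the fit, 6 of 6 passed in *dcl1-2* and 4 of 6 in wild type. Scaling by total count moved that median to 0.24 in wild type and 0.13 in *dcl1-2*, and the deposited RPM moved it to 0.54 and 0.45, shifts that are small beside the fold changes of the 6 genes.

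**Figure D2:**
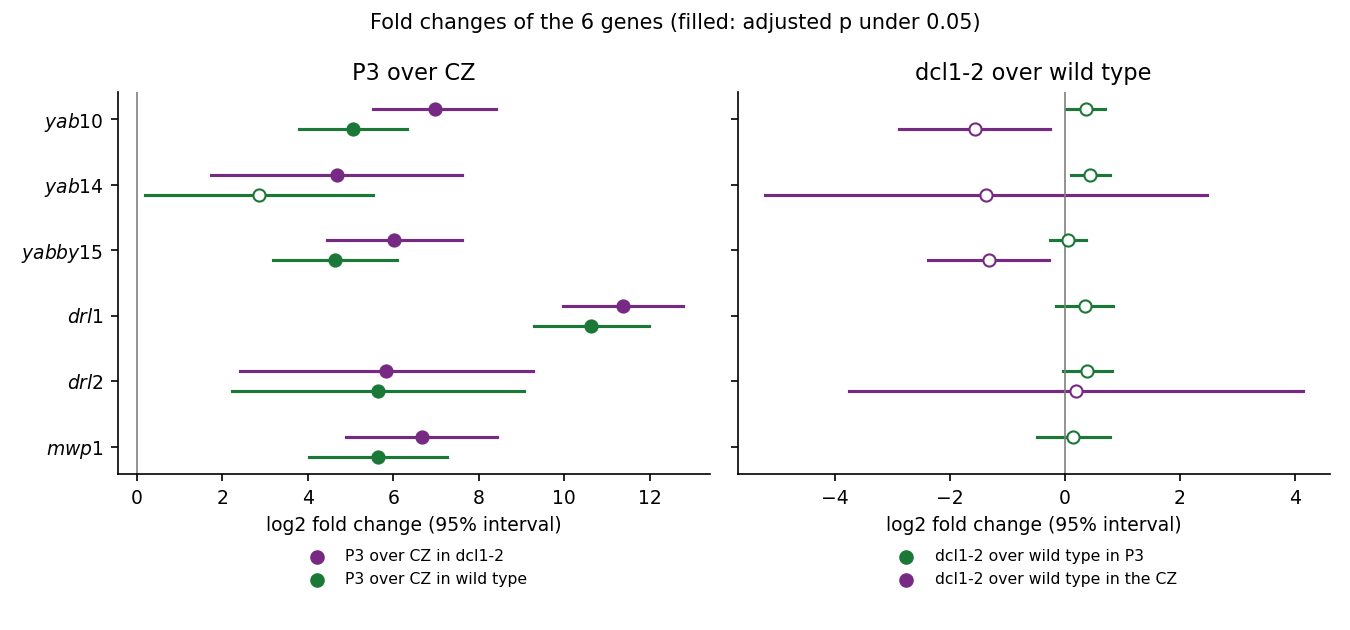
Log2 fold change of each gene, with 95% intervals, for P3 over CZ in *dcl1-2* and in wild type (left) and for *dcl1-2* over wild type in P3 and in the CZ (right). Filled points passed the test at an adjusted p under 0.05: 11 of 12 on the left and none on the right, where *drl1* and *mwp1* were too low in the CZ to be tested.

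The CZ libraries did not agree on which of the 6 genes were relatively high. As a share of the wild-type P3 mean, *yab10* had 0.715% and 1.09% in *dcl1-2* CZ and 1.38% and 3.86% in wild-type CZ. *drl2* had 3.47% and 0.642% in *dcl1-2* CZ and 0.375% and 3.11% in wild-type CZ. *yabby15* had 0.676% and 2.16% in *dcl1-2* CZ and 3.59% and 3.34% in wild-type CZ. Wild-type CZ replicate 2 was thus the highest CZ library for *yab10* and *yab14*, *dcl1-2* CZ replicate 1 was the lowest for *yab10*, *yab14* and *yabby15* but the highest for *drl2*, and *mwp1* was highest in wild-type CZ replicate 1.

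A comparison with other leaf transcripts was made after the values were seen. The 161 other genes that averaged 50 RPM or more in P3, with a CZ mean under 5% of it served as a set of P3-abundant genes. Their median share of the wild-type P3 mean was 1.95% and 1.51% in *dcl1-2* CZ and 4.04% and 2.51% in wild-type CZ, so as a group they were highest in wild-type CZ replicate 1. *drl1* was below these medians in all 4 CZ libraries and *yab14* above them in 3 of 4. The set was picked for a low CZ mean in these same libraries, so the 5% limit itself keeps its CZ medians low. The places of *drl1* and *yab14* against the medians thus depend on that limit. They do not show how either gene compares with leaf transcripts in general. Whether leaf cells or free RNA reached the CZ samples was not tested.

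**Figure D3:**
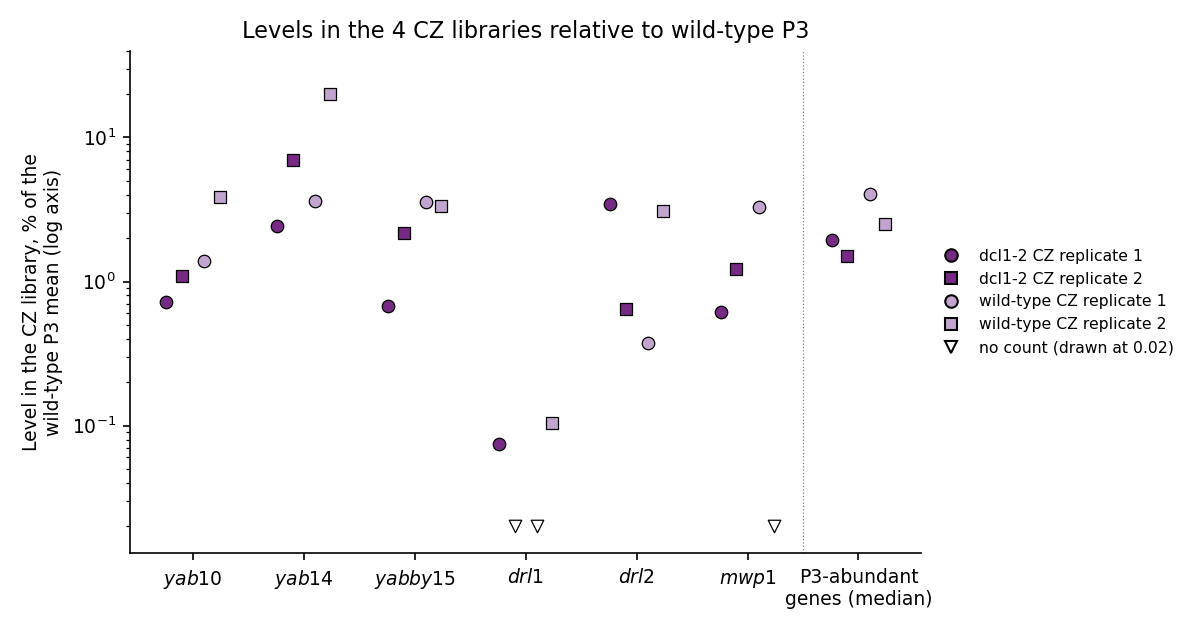
Level of each gene in each of the 4 CZ libraries as a percentage of its wild-type P3 mean (log axis), with the median of the 161 P3-abundant genes at the right and open triangles for libraries with no count. The highest point is *yab14* in wild-type CZ replicate 2, at 20.0%, and *drl1* lies at or below 0.103% in all 4 libraries.

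Within P3, 0 of the 6 genes passed between *dcl1-2* and wild type in edgeR, against 4.73% of all genes tested; a p that misses the threshold does not show equal levels. In that test 4078 of 22498 genes were under 0.05 before adjustment, with *yab10* and *yab14* among them, and DESeq2 called 0 of the 6 genes as well. The log2 fold change of *dcl1-2* over wild type was 0.36 for *yab10* (95% interval 0.03 to 0.69, adjusted p = 0.229) and 0.44 for *yab14* (0.10 to 0.78, adjusted p = 0.140). Of the *drl* genes, it was 0.35 for *drl1* (−0.15 to 0.85, adjusted p = 0.465) and 0.39 for *drl2* (−0.03 to 0.81, adjusted p = 0.312). *yabby15* had 0.05 (−0.26 to 0.37, adjusted p = 0.897), which turned to −0.0090 when libraries were scaled by total count, and *mwp1* 0.15 (−0.49 to 0.78, adjusted p = 0.859). Both *dcl1-2* P3 libraries were above both wild-type P3 libraries for *yab10* and *yab14*, as for 20.8% of all genes tested, and by only 1.01-fold and 1.05-fold at the nearest libraries.

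Wild-type P3 replicate 2 was below wild-type P3 replicate 1 for all 6 genes, and which of the pair was left out decided these calls. The ratio of replicate 2 to replicate 1 ran from 0.611 for *drl1* to 0.764 for *yabby15*. Over all genes tested in P3 its median was 1.05, and 15.2% of genes were at or under 0.764. Among the 161 P3-abundant genes the median was 0.851, and 24.8% were at or under 0.764. In *dcl1-2* P3 the same ratio was 0.750 for *drl1* and 0.764 for *drl2*, and 1.04 to 1.14 for the other 4 genes, with a median of 0.996 over all genes. Without wild-type P3 replicate 1, the wild-type arm is 1 library, assumed to vary like the *dcl1-2* pair, and calls over all genes numbered 1825 of 22690 against 1064 of 22498 with all 4 libraries. In that fit 5 of 6 genes passed as higher in *dcl1-2* P3: the log2 fold change was 0.66 for *yab10*, 0.76 for *yab14*, 0.30 for *yabby15*, 0.79 for *drl1* and 0.76 for *drl2* (adjusted p = 0.00188, 0.000384, 0.0496, 0.00576 and 0.00921, edgeR). Without wild-type P3 replicate 2, none passed.

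**Figure D4:**
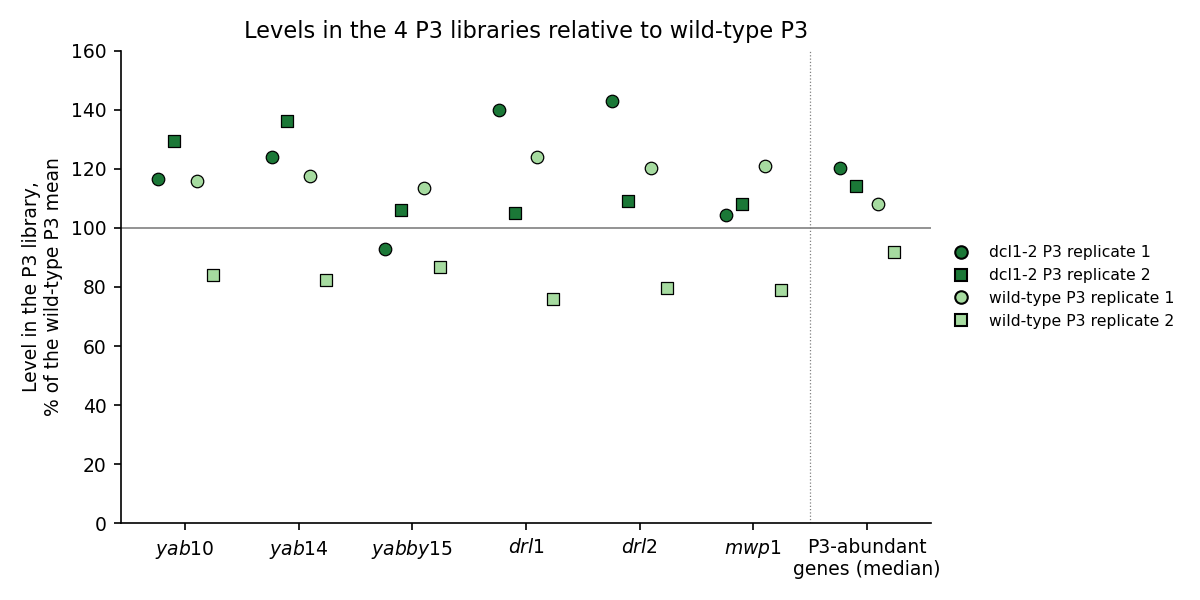
Level of each gene in each of the 4 P3 libraries as a percentage of its wild-type P3 mean, drawn from 0, with the median of the 161 P3-abundant genes at the right. Wild-type P3 replicate 2 is the lowest library for all 6 genes, between 75.9% and 86.6%.

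In the CZ, 4 of the 6 genes could be tested and none passed in edgeR, against 0.437% of all genes tested, of which 2092 had an unadjusted p under 0.05. DESeq2 called none of the 4 either, and 345 of 19897 genes in all. The log2 fold change of *dcl1-2* over wild type was −1.57 for *yab10* (95% interval −2.88 to −0.25, adjusted p = 0.372, edgeR) and −1.32 for *yabby15* (−2.37 to −0.27, adjusted p = 0.347). For both genes the 2 *dcl1-2* libraries lay below the 2 wild-type ones, as for 18.1% of all genes tested, and the unadjusted p was 0.0228 and 0.0195. *yab14* had −1.37 (−5.22 to 2.48, adjusted p = 0.809) and *drl2* 0.20 (−3.75 to 4.14, adjusted p = 0.981), with overlapping libraries. *drl1* and *mwp1* were under the minimum of 1 RPM in both groups. What passed changed with single libraries here as well, in fits that assume the lone library of an arm to vary like the other group. Without wild-type CZ replicate 1, 343 of 19837 genes were called, against 87 of 19897 with all 4 libraries, and *yab10*, *yab14* and *yabby15* passed as lower in *dcl1-2* (−2.13, −2.13 and −1.28; adjusted p = 0.0426, 2.6e-08 and 0.0335). Without *dcl1-2* CZ replicate 2, *yabby15* alone of the 4 passed (−2.39, adjusted p = 0.0156), with 27 of 20035 genes called, and without wild-type CZ replicate 2 the value of *yab14* turned to 0.36 (adjusted p = 0.847).

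Whether the change with *dcl1-2* differed by tissue was tested as an interaction of genotype and tissue. None of the 6 genes passed in edgeR or DESeq2, against 2.60% of all genes tested in edgeR, of which 3780 had an unadjusted p under 0.05. The difference was positive for all 6, from 0.18 ± 1.59 for *drl2* to 1.92 ± 0.73 for *yab10* on the log2 scale (± SE), with adjusted p from 0.283 to 0.991; only *yab10* had an unadjusted p under 0.05 (0.0402). The sign turned for *drl1*, *drl2* and *mwp1* when some single libraries were left out. Leaving out 1 library gave a call for *yab10* (2.51, without wild-type CZ replicate 1, adjusted p = 0.00147) and for *yabby15* (2.45, without *dcl1-2* CZ replicate 2, adjusted p = 0.000451).

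The other YABBY and KANADI genes of the name table were 7, and 6 were high enough to be tested between the tissues. In wild type 3 of 6 were called higher in P3, beside 31.2% of all genes tested, and none lower, with a median log2 fold change of 3.83 against 0.02 for all genes tested; in *dcl1-2* 5 of 6 were called higher, beside 33.2%. *yab9* was closest to the 6 genes in level and gap, at 145 and 136 RPM in *dcl1-2* P3 and 159 and 106 RPM in wild-type P3, against 2.59 and 2.46 RPM in *dcl1-2* CZ and 2.64 and 3.57 RPM in wild-type CZ. Its log2 fold change was 5.69 ± 0.26 in *dcl1-2* and 5.21 ± 0.25 in wild type (adjusted p = 1.1e-10 and 2.6e-10, edgeR), and unlike *drl2* and *yab14* its CZ libraries lay close together. *kan1* and *YAB11* also rose in wild-type P3, by log2 fold changes of 4.89 ± 0.97 and 3.53 ± 0.81 (adjusted p = 0.00061 and 0.00283).

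In the CZ, the low members of these families were found mainly in wild-type CZ replicate 1. *YAB3* had 2.21 RPM in that library and no count in the other 3 CZ libraries, and *kan1* had 0.429 RPM there and no count elsewhere in the CZ. *YAB5* had 3.40 RPM, *YAB6* 2.97 RPM and *YAB11* 1.48 RPM in that library, and none of them passed 0.113 RPM in another CZ library. *mwp1* was also highest in that library, with 13 of its 19 CZ counts, whereas *yab10*, *yab14* and *drl2* were lower there than in wild-type CZ replicate 2. Between the genotypes, 0 of 6 tested in P3 and 0 of 4 tested in the CZ passed, beside 4.73% and 0.437% of all genes tested.

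Class III HD-ZIP genes, the adaxial partners of the network, had calls in both directions. Of 7, 2 were called higher and 4 lower in wild-type P3 than in wild-type CZ. Over all genes tested, 31.2% were called higher, and of the 14628 of 23512 genes called, 50.1% were higher. Calls in both directions thus do not set this list apart. Its median log2 fold change was −0.63, a value that did not change when the gene with no CZ count was set at its bound. The 3 with the smallest p were GRMZM2G003509 and GRMZM2G042250, which fell by 2.31 and 1.85 on the log2 scale in P3 (adjusted p = 2.9e-09 and 2.4e-08, edgeR), and AC187157.4_FG005, which had 10.1 and 10.2 RPM in wild-type P3 and no count in any CZ library. In P3, 4 of 7 rose in *dcl1-2*, beside 4.73% of all genes called in either direction. GRMZM2G003509, for instance, had 104 and 103 RPM in *dcl1-2* P3 against 53.0 and 48.3 RPM in wild-type P3, a log2 fold change of 1.09 ± 0.15 (adjusted p = 0.000213), and GRMZM2G042250 had 120 and 108 RPM against 62.4 and 75.2 RPM (0.80 ± 0.15, adjusted p = 0.00283). Of the 7, 4 passed the interaction, beside 2.60% of all genes tested, and none of the 6 YABBY and KANADI genes did. Interaction values of the 4 ran from 0.99 to 1.84 on the log2 scale, with SE of 0.20 to 0.25. For the 6 they ran from 0.18 to 1.92, with SE of 0.71 to 1.93. Missing calls among the 6 thus do not show smaller differences.

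Precursor and *tas3* transcripts of the small RNA side of the network also moved in *dcl1-2* P3. Mature small RNAs of *dcl1-2* were not measured here, and the paper describes mature miRNAs as decreased in this mutant. A higher precursor level is thus not a higher level of miR166. Of 11 *MIR166* precursors 5 were testable in P3, and 4 of 5 rose in *dcl1-2*, beside 4.73% of all genes called in either direction. The median log2 fold change of the 5 was 1.59, against −0.02 for all genes tested. *MIR166b* had 114 and 124 RPM in *dcl1-2* P3 against 19.7 and 22.0 RPM in wild-type P3 (2.58 ± 0.16, adjusted p = 2.4e-08, edgeR). *MIR166k* had 14.0 and 13.8 RPM against 4.24 and 5.45 RPM, and *MIR166n* 80.8 and 75.9 RPM against 32.1 and 30.4 RPM (1.59 ± 0.34 and 1.39 ± 0.17; adjusted p = 0.0104 and 4.8e-05). In wild type, 4 of 5 precursors were called higher in P3 than in the CZ, beside 31.2% of all genes.

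Of the 8 *tas3* transcripts 7 were testable, and 5 of 7 were called higher in P3 in each genotype, beside 33.2% of all genes in *dcl1-2* and 31.2% in wild type, with a median log2 fold change of 4.45 in *dcl1-2* and 2.13 in wild type. GRMZM2G178686 had 61.2 and 57.4 RPM in *dcl1-2* P3 and 32.6 and 35.5 RPM in wild-type P3. It fell in the CZ, to 1.17 and 1.11 RPM in *dcl1-2*, against 9.03 and 4.43 RPM in wild type (−2.58 ± 0.49, adjusted p = 0.0366, edgeR). It was the only 1 of 6 testable there that was called, beside 0.437% of all genes called in either direction. In *dcl1-2* P3 3 of 7 were called higher than in wild-type P3, GRMZM2G178686 included, beside 4.73% of all genes called in either direction. GRMZM2G124744, at 70.4 and 58.1 RPM in *dcl1-2* P3 against 29.0 and 44.3 RPM in wild-type P3, was among them (0.88 ± 0.19, adjusted p = 0.0127, edgeR), and GRMZM2G155490, at 8.70 and 5.52 RPM against 8.69 and 8.93 RPM, was not (adjusted p = 0.787). The leaf identity genes *rs2* and *IG1*, which keep KNOX genes off in leaves, were called higher in P3 in wild type (2.52 ± 0.30 and 4.14 ± 0.77; adjusted p = 4.9e-06 and 0.0085), and *lbl1*, whose product is needed to make the *tas3* small RNAs, was called lower (−1.39 ± 0.15, adjusted p = 1.5e-06). None of these 3 passed between the genotypes in P3, beside 4.73% of all genes tested.

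**Figure D5:**
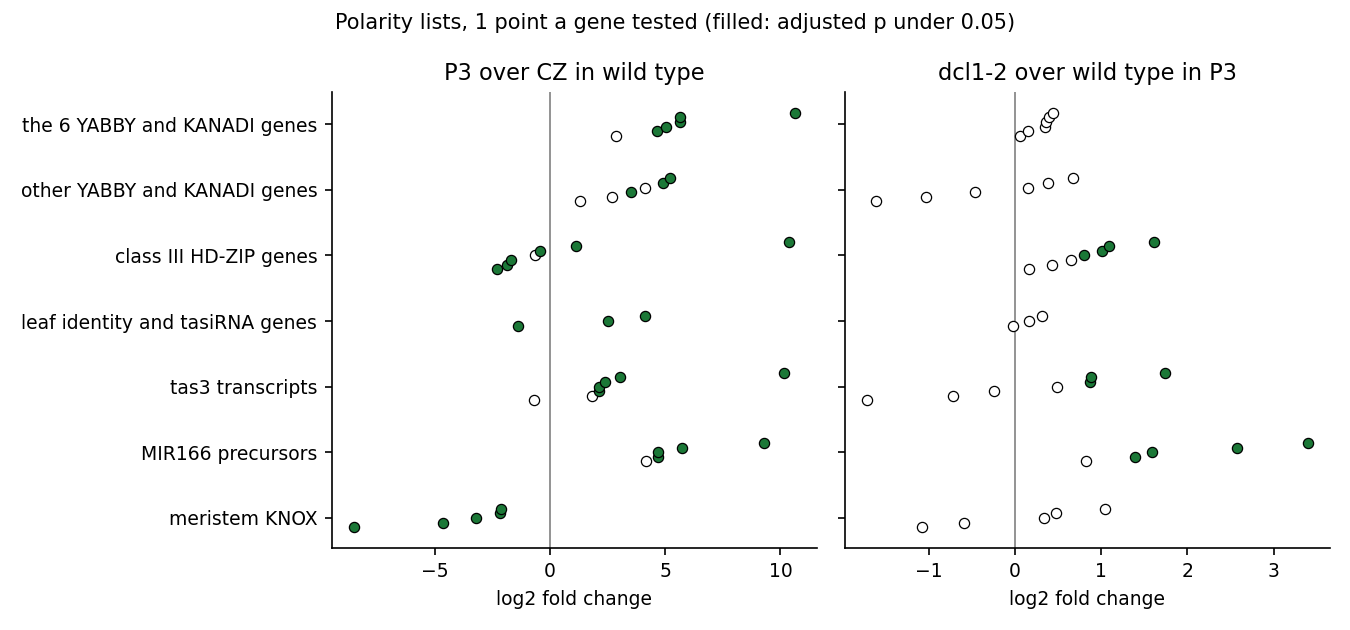
Log2 fold change of every tested gene of the polarity lists and of the meristem KNOX genes, for P3 over CZ in wild type (left) and *dcl1-2* over wild type in P3 (right). Filled points passed at an adjusted p under 0.05. The 6 YABBY and KANADI genes described here lie right of 0 on the left and between 0.05 and 0.44 on the right, unfilled there, where 4 class III HD-ZIP genes and 4 *MIR166* precursors are filled.

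Genes with profiles most like each member were found by Pearson's r of log2(RPM + 1) over the 8 libraries, among 18969 genes that averaged 5 RPM or more in some group. This r compares the shape of a profile and takes no account of its level or of the size of the gap between tissues. The libraries fall into 2 tissues, which differ in read layout, so r is high for any gene that separates them: 687 genes had r over 0.99 with *drl1*, 608 with *mwp1*, 153 with *yab10*, 77 with *yabby15*, 12 with *drl2* and 2 with *yab14*. For *yab14* the closest were GRMZM2G054795 (r = 0.995), GRMZM2G120938 (0.993) and GRMZM5G819222 (0.988), of which GRMZM2G054795 had 50.3 and 62.5 RPM in *dcl1-2* P3 and 52.1 and 44.5 RPM in wild-type P3. In the CZ it had 1.17 and 4.12 RPM in *dcl1-2* and 1.95 and 7.29 RPM in wild type, highest, like *yab14*, in wild-type CZ replicate 2. For *drl2* they were GRMZM2G008663 (r = 0.997), GRMZM2G112337 (0.995) and GRMZM2G391413 (0.994). GRMZM2G391413 had 1.49 and 0.317 RPM in *dcl1-2* CZ and 0.429 and 1.28 RPM in wild-type CZ, high in the CZ libraries in which *drl2* was high.

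For *yab10* the closest were GRMZM5G834758 (*MNB1B*, r = 0.998), GRMZM2G026930 (*A1*, the dihydroflavonol reductase gene of anthocyanin synthesis, r = 0.998) and GRMZM2G005955 (r = 0.998). Their gaps differed: GRMZM5G834758 had 2360 to 2616 RPM in P3 and 937 to 1188 RPM in the CZ. GRMZM2G026930 had 15.5 to 20.8 RPM in P3 and 0 to 0.751 RPM in the CZ. *yabby15* was most like GRMZM2G041561 (r = 0.999), GRMZM2G056600 (r = 0.998) and GRMZM2G035405 (*ARF18*, r = 0.998). *drl1* was most like GRMZM2G305048, GRMZM2G309899 and GRMZM2G066743 (r = 0.9997, 0.9996 and 0.9994), and *mwp1* like AC208897.3_FG004, GRMZM2G105224 and AC203173.3_FG004 (each r = 0.999). Among the 6 themselves, the highest r was 0.995, between *drl1* and *mwp1*, and the lowest was 0.921, between *yabby15* and *drl2*. No member was among the 3 closest genes of another.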

How the data were processed

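Raw counts per gene were deposited by the authors, who used Trimmomatic for trimming, TopHat for alignment (build B73 RefGen_v3) and HTSeq for counting in an annotation with curated precursors. The authors also deposited RPM columns, which sum to more than 1000000 per library and served only as an alternative. The small RNA library was not used, and 1 blank count cell was read as 0. The 6 genes and all lists were chosen with earlier results of these data known. Gene names come from a table of assembly NAM-5.0, which matched 18751 rows.

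The main test was the quasi-likelihood F test (edgeR 4.0.16 in R 4.3.3, with limma 3.58.1) on TMM-normalized counts, with Benjamini-Hochberg adjustment over all genes tested and calls at an adjusted p under 0.05. A gene entered a fit if it averaged 1 RPM or more in any of its groups. P3 was compared with the CZ, and the interaction tested, in 1 model of all 8 libraries; *dcl1-2* was compared with wild type in the 4 libraries of a tissue. Replicates are pools of apices, and the labels do not say that they were grown apart, so p-values measure the spread between these pools. Tested on simulated data, 9.4%, 9.2%, 4.3%, 8.8% and 7.1% of calls fell on unchanged genes for P3 over CZ in wild type and in *dcl1-2*, *dcl1-2* over wild type in P3 and in the CZ, and the interaction, against an aim of 5%. Only a small set of genes was changed in the simulated data, with no other difference between groups. In the real P3 over CZ fits 14628 and 15421 of 23512 genes were called, so the simulated shares do not carry over to those. With a simulated log2 change of 1, 50.0% of genes were recovered for *dcl1-2* in P3 and 10.0% for the interaction.

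The genes named were the 6 members, the 3 genes most like each, and up to 3 of each list with the smallest p for P3 over CZ in wild type. Also named were *cab48*, *ocl1* and the other low YABBY and KANADI genes, singled out after their values were seen. Lists were described by counts and medians. Alternatives were other normalizations, filters and tools (DESeq2 1.42.0), the deposited RPM with limma on log2(RPM + 1), a log2 fold cutoff of 1, P3 counts halved, other sets of libraries, each replicate left out and the replicate number as a block. Python 3.11.15 with pandas 2.3.3, scipy 1.17.1 and matplotlib 3.10.9 was used for tables and plots.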

Additional observations from a re-analysis of the deposited data

How the results depend on the processing

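The direction of P3 over CZ held for all 6 genes in both genotypes under every alternative run, and 4 to 6 genes were called in each. For *dcl1-2* over wild type in P3, 1 gene (*yab14*) was called with no filter and 1 with the replicate block, and 0 to 5 with a replicate left out; in the CZ it was 2 with no filter (*yab14* and *yabby15*) and 0 to 3 with a replicate left out; for the interaction it was 3 with no filter, 2 with the replicate block (*yab10* and *yab14*) and 0 to 1 with a replicate left out. Scaling by total count turned *yabby15* in P3 to −0.0090. With replicates left out, *yabby15* in P3 ran from −0.16 to 0.30 and *mwp1* from −0.15 to 0.53; in the CZ *yab14* ran from −2.33 to 0.36 and *drl2* from −1.49 to 2.45; and in the interaction *drl1* ran from −2.36 to 3.46, *drl2* from −2.04 to 1.86 and *mwp1* from −3.93 to 1.94. The cause of these changes was not tested.

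Same-numbered libraries of the genotypes did not deviate together (r = 0.05 over genes in the CZ and 0.01 in P3), so they share only a number. Under the replicate block, *yab14* passed for P3 over CZ in wild type (3.28) and *drl2* passed in neither genotype (5.66 in wild type, adjusted p = 0.0982, and 5.78 in *dcl1-2*, 0.0919, edgeR). Over all genes, calls in P3 numbered 1064, against 1657 with no filter, 1610 with the block, 628 with the fold cutoff, 466 with all 8 libraries and 517 to 1825 with a replicate left out. In the CZ they numbered 87, against 697 with no filter, 345 with DESeq2, 355 with the block, 273 with all 8 libraries, 46 with filterByExpr and 27 to 746 with a replicate left out. For the interaction they numbered 611, against 1589 with no filter, 1022 with DESeq2, 328 with the deposited RPM and 155 to 949. The share of calls that were higher moved from 50.1% to 73.8% with the deposited RPM for P3 over CZ in wild type, from 50.6% to 68.7% in *dcl1-2*, and from 74.1% to 61.9% in P3 and 82.8% to 69.5% in the interaction with total count.

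With CZ levels of a few counts, *drl1* and *mwp1* were not tested between genotypes in the CZ. With no filter their values were −0.45 ± 2.77 and −0.84 ± 1.90 (± SE), and neither passed.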
